A study of Homo sapiens with 12 samples.

Results

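Expression of 10 genes of the ATF4 and unfolded protein response was followed in Rh30, a human alveolar rhabdomyosarcoma (ARMS) cell line that carries the PAX3-FKHR fusion. The genes were taken by symbol: ATF4, ATF3, DDIT3, DDIT4, TRIB3, ASNS, CHAC1, SESN2, HSPA5 and HERPUD1. All 10 were found on the array, by 15 of its 41000 gene probes, which carry 30238 different gene names. ATF4, ATF3, TRIB3, ASNS and HSPA5 have 2 probes each and the other genes 1, and a gene is given by its brightest probe unless a second probe is named.

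The study compared parental Rh30 cells (WT), a control clone (CON) and a clone in which PAX3-FKHR was stably knocked down (KD1), to find genes that follow the level of the fusion. CON and KD1 carry stably integrated hairpin constructs, non-targeting in CON and directed at the fusion in KD1, and each is 1 clone, so clone and construct cannot be told apart. Both clones were kept in puromycin at 1 μg/mL and WT was not, and all cultures were grown for 24 h before RNA extraction. Each culture gave 2 RNA extracts, called replicate 1 and replicate 2, and each extract was hybridised on 4 of the 12 two-colour arrays. KD1 over CON, KD1 over WT and WT over CON therefore each have 2 replicate ratios, and every replicate ratio is the mean of a dye-swap pair. All ratios below are log2 ratios of processed intensity with the first culture as numerator.

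When unfolded protein builds up in the endoplasmic reticulum (ER), when amino acids run short or when other stresses act, kinases phosphorylate the initiation factor eIF2alpha. Most translation then slows while ATF4, a basic leucine zipper (bZIP) transcription factor, is translated more and switches on genes for amino acid supply and, when stress lasts, for cell death. Other arms of the unfolded protein response, run by the sensors ATF6 and IRE1, switch on ER chaperones, of which HSPA5 (BiP) is a leading one. ATF4 is also a gene whose product is controlled largely by translation, so its mRNA is only part of its regulation.

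The promoter sequence of these 10 genes was searched for exact strings of known response elements close to the start of transcription. Windows from 250 bases before to 50 bases after the start were taken from RefSeq for build GRCh38.p14, and all 10 genes matched, with 16 windows between them. TGATGNAA, the C/EBP-ATF response element bound by ATF4 with a C/EBP partner, was found on either strand in 4 of the 10 genes, ATF3, ASNS, CHAC1 and HERPUD1, against 4.46% of 27303 genes, and in 4 of the 16 windows, against 3.62% of 35114 windows. The ER stress response element, CCAAT and CCACG with 9 bases between them, was found in HSPA5 and in no other of the 10 genes, against 0.0916% of all genes. TGACGTCA, the cAMP response element, was found in none of the 10 genes and in 2.25% of all genes. CCACG alone, which is also part of the ER stress response element, was found in 6 of the 10 genes and in 42.1% of all genes. The TRIB3, DDIT3, DDIT4, SESN2 and ATF4 windows held no TGATGNAA, which says only that these letters do not occur there. The same limit holds for the ER stress response element. Forms of it with other letters or another spacing were not searched, so HERPUD1, DDIT3 and the other genes may hold one.

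The stretches around the matches are shown as the sequence context of these elements; the matches do not follow the sizes of the ratios below, since TRIB3 and DDIT3 hold none and CHAC1 holds 1. Each is 100 bases long, ends before the start of transcription, and is written 5′ to 3′ on the gene's strand. Capitals mark the match, and for HSPA5 its outer parts. In CHAC1 and HERPUD1 the match lies on the opposite strand and reads TTGCATCA.
ASNS, minus strand, chr7:97872423-97872522: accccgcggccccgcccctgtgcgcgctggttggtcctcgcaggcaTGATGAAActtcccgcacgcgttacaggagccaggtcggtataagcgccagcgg
ATF3, plus strand, chr1:212565170-212565269: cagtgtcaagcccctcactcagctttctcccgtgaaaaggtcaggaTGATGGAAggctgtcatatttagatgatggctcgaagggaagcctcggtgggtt
CHAC1, plus strand, chr15:40953221-40953320: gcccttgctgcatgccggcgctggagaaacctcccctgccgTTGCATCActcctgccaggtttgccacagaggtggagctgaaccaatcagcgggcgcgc
HERPUD1, plus strand, chr16:56931920-56932019: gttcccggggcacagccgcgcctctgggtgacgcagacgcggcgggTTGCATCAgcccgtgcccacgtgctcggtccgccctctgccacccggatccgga
HSPA5, minus strand, chr9:125241351-125241450: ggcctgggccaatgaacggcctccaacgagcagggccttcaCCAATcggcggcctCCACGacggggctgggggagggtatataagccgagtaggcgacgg

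All 15 probes were well above background on 8 of 8 arrays of each culture and were tested in every comparison. Of 12 genes that mark muscle or ARMS, 10 or more were well above background on all 8 arrays of each culture, MYOD1, MYOG and DES among them, while TFAP2B was on none. PTPRC, the common blood cell marker, was on none either, but CD3E, CD14 and CD68 were on all 8, as were KRT14 of 5 epithelial and PECAM1 and VWF of 4 endothelial markers, in each culture. Their part in the results was not tested. PAX3 and FOXO1 (FKHR), the partners of the fusion, each had a mean ratio of -0.42 in KD1 over CON (adjusted p = 0.327 and 0.433), and whether their probes read the fusion transcript was not tested. Across 21894 probes the KD1 extracts differed from each other by 2-fold or more at 4.73% of probes, against 2.24% for the CON extracts and 2.96% for the WT extracts. The KD1 extracts were also hybridised on different slides, so for KD1 the extract and the slide cannot be told apart.

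Of the 10 genes, all but HSPA5 had their highest values in one extract, KD1 replicate 2. In replicate 2, all 10 had a ratio above 0 in KD1 over CON, with a median of 0.97, against 47.4% of tested probes. In KD1 over WT all 10 did by brightest probe, with a median of 1.45, against 46.9%, but the second HSPA5 probe was at -0.04. In replicate 1, 8 of the 10 were above 0 in each comparison, with medians of 0.36 and 0.22 and none at 2-fold. Of tested probes, 49.9% were above 0 there in KD1 over CON and 54.4% in KD1 over WT. No gene passed the test in KD1 over CON or in KD1 over WT, and in the latter the replicates lay more than 1 apart on the log2 scale for 8 of the 10 genes, all but CHAC1 and HSPA5. In bulk RNA, more responding cells and more RNA per cell cannot be told apart.

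**Figure D1:**
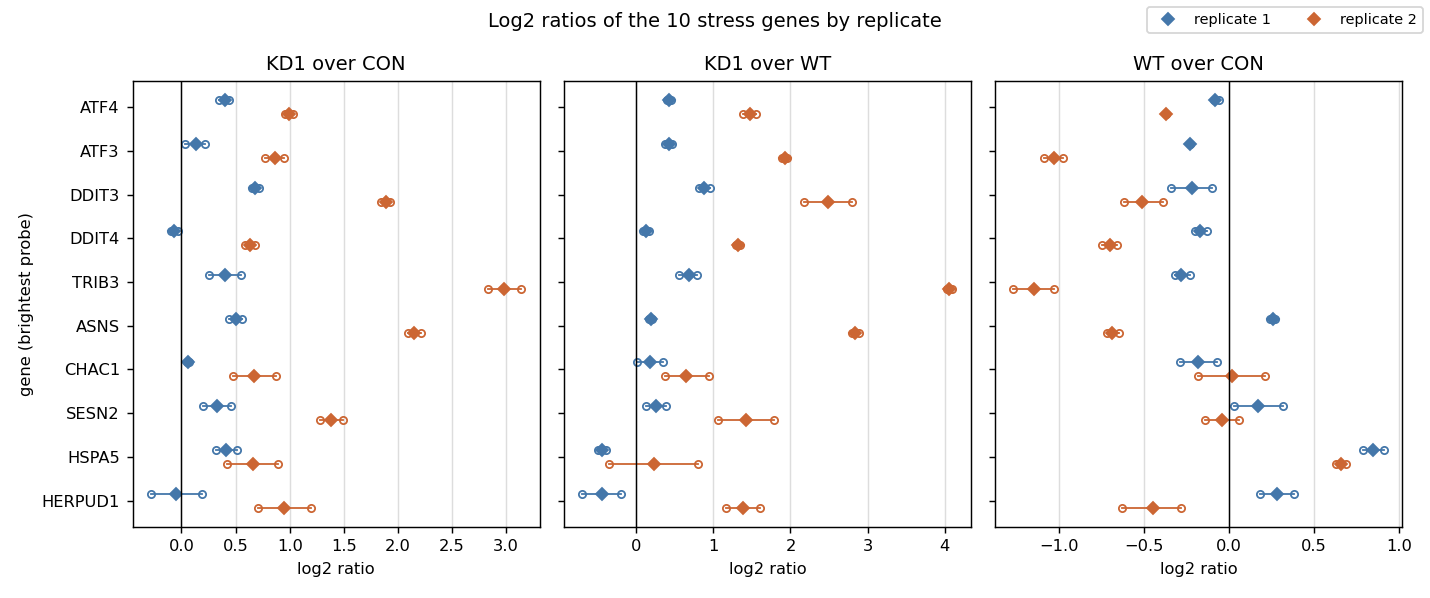
Log2 ratio (horizontal axis) of the 10 genes (vertical axis, brightest probe) in KD1 over CON, KD1 over WT and WT over CON. Diamonds are replicate ratios, open circles the arrays of the dye-swap pair, and lines join the pair; TRIB3 reached 4.06 in replicate 2 of KD1 over WT and 0.68 in replicate 1.

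ATF4 itself, read by a probe at chr22:38248523-38248582 (build NCBI36, plus strand), had a ratio in KD1 over CON of 0.40 in replicate 1 and 0.99 in replicate 2 (mean 0.70 ± 0.42, SD, n = 2; limma adjusted p = 0.236). Over WT it was 0.43 and 1.47 (mean 0.95 ± 0.74, SD, n = 2; limma adjusted p = 0.154). All 4 arrays of each comparison were above 0, and the replicate 2 ratio was the larger in both. The second ATF4 probe, at chr22:38247821-38247880, gave 0.34 and 1.03 in KD1 over CON and 0.61 and 1.79 in KD1 over WT, so both probes put KD1 replicate 2 highest.

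The bZIP factors that act downstream of ATF4 behaved in the same order. ATF3, a stress-induced repressor and activator, stood at 0.13 and 0.86 in KD1 over CON and at 0.42 and 1.93 in KD1 over WT. DDIT3 (CHOP), the factor tied to cell death under lasting ER stress, stood at 0.68 and 1.89 in KD1 over CON (mean 1.29 ± 0.85, SD, n = 2; limma adjusted p = 0.136). Over WT it stood at 0.88 and 2.49 (mean 1.69 ± 1.14, SD, n = 2; limma adjusted p = 0.0908), a 3.22-fold mean difference. By brightest probe, DDIT3 had the highest replicate 1 ratio and the lowest adjusted p of the 10 genes in both KD1 comparisons. Higher replicate 1 ratios were given by the second HSPA5 probe over CON (0.89) and the second TRIB3 probe over WT (0.96). The DDIT3 probe spans 327 bases of chromosome 12, chr12:56197467-56197793 on the minus strand, more than its own length, so its match to the genome is split.

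TRIB3, a pseudokinase that ATF4 and DDIT3 switch on and that damps ATF4 activity in turn, had the widest range. Its 4 arrays of KD1 over WT read 0.79 and 0.56 in replicate 1 and 4.03 and 4.10 in replicate 2. The replicate 2 ratio of 4.06 is 16.7-fold, and 28th from the highest among 24894 tested probes. In KD1 over CON the replicate ratios were 0.40 and 2.98, and the latter, 7.91-fold, was 31st of 21950. The replicates therefore lay further apart (SD 2.39 in KD1 over WT) than the mean lay from 0 (2.37), and the limma adjusted p was 0.159 in KD1 over WT and 0.263 in KD1 over CON. The second TRIB3 probe gave 0.96 and 3.82 in KD1 over WT, so the size of the replicate 2 value does not rest on a single probe.

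The metabolic and growth-control targets split by size. ASNS, the enzyme that makes asparagine, stood at 0.50 and 2.15 in KD1 over CON and at 0.19 and 2.84 in KD1 over WT, and its replicate 2 ratio in KD1 over WT, 7.17-fold, was second only to TRIB3 among the 10 genes. SESN2 (sestrin 2), an inhibitor of mTORC1 that reports low leucine, stood at 0.33 and 1.38 and at 0.26 and 1.42. DDIT4 (REDD1), another inhibitor of mTORC1, stood at -0.07 and 0.63 and at 0.13 and 1.32, and was the only gene of this group below 0 in a KD1 ratio. CHAC1, which breaks down glutathione, stood at 0.06 and 0.67 and at 0.18 and 0.65, and was the only one of the 4 under 2-fold in replicate 2 of KD1 over WT. None of these genes passed the test in either comparison, with limma adjusted p from 0.211 to 0.695.

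A second ASNS probe did not give the values of the first. It is assigned in the array design to the clone BC030024 and lies at chr7:97376072-97376131 against chr7:97319397-97319456 for the main probe (build NCBI36). Its ratios were -0.28 and 0.64 in KD1 over CON and -0.20 and 0.74 in KD1 over WT, so it too was higher in replicate 2 but by far less. ASNS is reported here by the brighter probe; the mean of both probes was 0.75 in KD1 over CON and 0.89 in KD1 over WT, under 2-fold, against 1.32 and 1.51.

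HERPUD1, an ER membrane protein that helps to degrade misfolded protein, was below 0 in replicate 1 and above 0 in replicate 2. It stood at -0.05 and 0.95 in KD1 over CON and at -0.45 and 1.39 in KD1 over WT. Its mean ratios, 0.45 and 0.47, were smaller than their SDs of 0.71 and 1.30 (n = 2).

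The log2 levels in the 6 extracts, which need no ratio, also put KD1 replicate 2 highest for all genes but HSPA5. TRIB3 read 13.42 in WT replicate 1 and 13.42 in WT replicate 2, 13.69 and 14.53 in CON, and 14.10 and 17.40 in KD1. The WT extracts were the same by this probe, the CON extracts differed by 0.84, and the KD1 extracts by 3.30, a difference reached or passed by 0.128% of 21894 probes. By the second TRIB3 probe the WT extracts differed by 0.44, the CON extracts by 0.81 and the KD1 extracts by 3.40. ASNS read 13.73 and 13.35 in WT, 13.44 and 14.01 in CON, and 13.94 and 16.12 in KD1. DDIT3 read 13.03 and 12.99 in WT, 13.24 and 13.56 in CON, and 13.92 and 15.45 in KD1, so that its KD1 replicate 1 level too lay above all CON and WT levels. By brightest probe this was also so for ATF4 and SESN2. For ATF3, DDIT4, TRIB3, ASNS, CHAC1 and HERPUD1, CON replicate 2 read above KD1 replicate 1. For 9 of the 10 genes, all but HSPA5, every array of KD1 replicate 2 read above every array of every other extract. Those 4 arrays repeat 1 extract, and the share of all probes that do the same was not counted. The rise of these 9 genes from KD1 replicate 1 to replicate 2 was reached or passed by 0.128% (TRIB3) to 5.93% (ATF4) of 21894 probes.

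**Figure D2:**
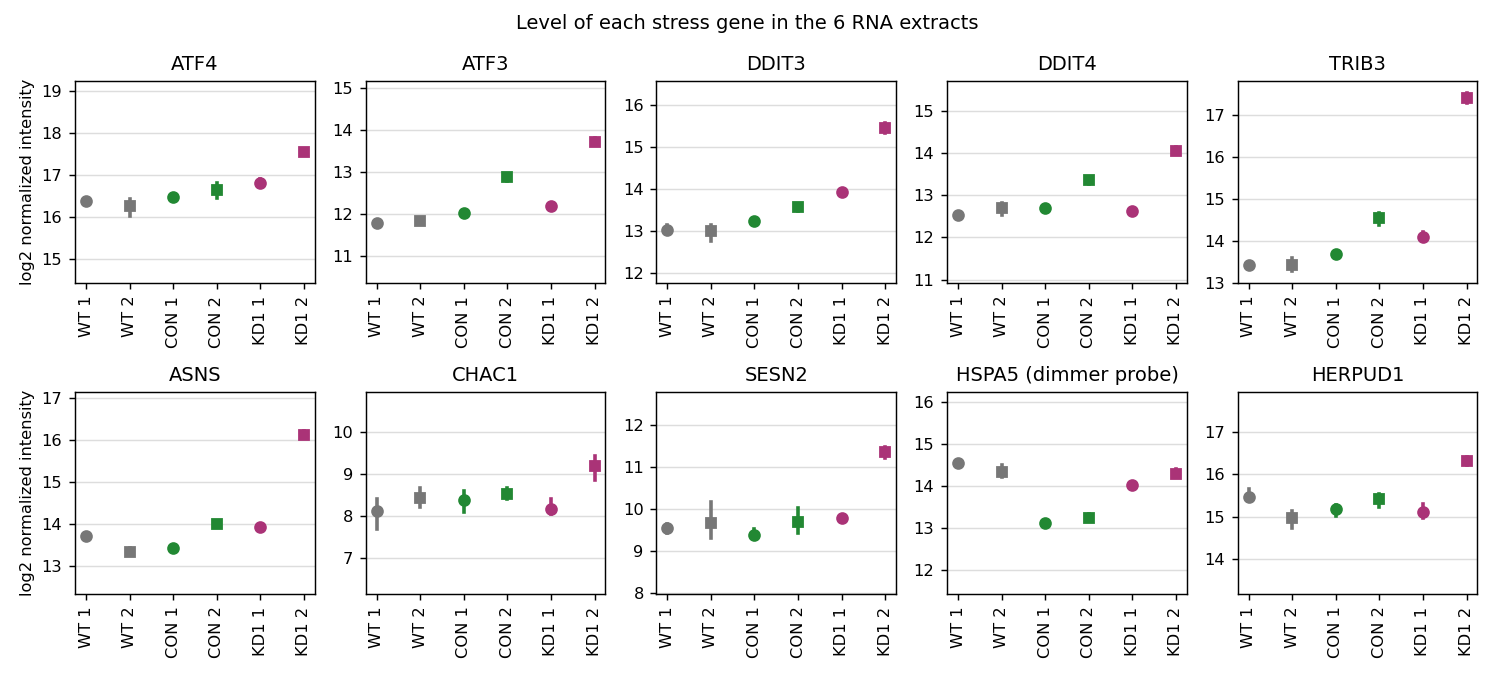
Log2 normalized intensity (vertical axis, the same span in each panel) of each gene in the WT, CON and KD1 extracts of replicates 1 (circles) and 2 (squares). Symbols are means over 4 arrays and bars run from the lowest to the highest array; TRIB3 in KD1 reads 14.10 and 17.40, and HSPA5, shown by its dimmer probe, is lowest in CON.

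The same extract was compared with CON and with WT, so those ratios share it, and WT over CON gives the values without KD1. There most of the genes were lower in WT than in CON. TRIB3 stood at -0.28 and -1.15, ATF3 at -0.23 and -1.03, DDIT4 at -0.17 and -0.70, DDIT3 at -0.22 and -0.51, and ATF4 at -0.08 and -0.37, and all 4 arrays were below 0 for each of the 5. For these 5 genes CON replicate 2 thus also read higher than WT replicate 2, by up to 2.22-fold for TRIB3. ASNS stood at 0.26 and -0.69 and HERPUD1 at 0.28 and -0.45, with opposite signs in the replicates, and CHAC1 (-0.18 and 0.02) and SESN2 (0.17 and -0.04) lay close to 0. None of these 9 genes passed the test, with limma adjusted p from 0.406 to 0.945. The WT over CON arrays were on a slide of their own, and the sum of KD1 over WT and WT over CON came within 0.12 of KD1 over CON for each of the 9 genes in both replicates.

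HSPA5 moved differently from the other 9 genes. Its probe at chr9:127036970-127037029 (build NCBI36, minus strand) stood at 1.45 and 1.05 in WT over CON (mean 1.25 ± 0.28, SD, n = 2), a 2.37-fold mean difference with all 4 arrays above 0. This was the only call among the 15 probes in any comparison, with a limma adjusted p of 0.0484 in the fit on ratios and 0.0859 in the fit on extract values, so the call depends on the fit. In KD1 over CON this probe stood at 0.89 and 1.01 (mean 0.95 ± 0.09, SD, n = 2; limma adjusted p = 0.0798), and in KD1 over WT at -0.53 and -0.04. By level it read 14.56 and 14.33 in WT, 14.03 and 14.29 in KD1, and 13.12 and 13.25 in CON, so CON was lowest in both replicates and KD1 replicate 2 did not stand apart.

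The other HSPA5 probe, marginally the brighter and split over chr9:127039245-127040290, also had positive ratios over CON in both replicates. It stood at 0.85 and 0.66 in WT over CON (limma adjusted p = 0.165), at 0.41 and 0.66 in KD1 over CON and at -0.44 and 0.23 in KD1 over WT. Its dye-swap arrays of replicate 2 in KD1 over WT read 0.80 and -0.35, the widest disagreement, 1.15, of the 60 dye-swap pairs of the brightest probes, whose median disagreement was 0.15. Its levels also ran from 13.94 to 16.93 over the arrays of KD1 replicate 2 and from 13.05 to 16.52 over those of CON replicate 2, so no order of extracts is read from them. GAPDH, a common reference gene, stood at 0.61 and 0.68 in WT over CON (limma adjusted p = 0.175), close to this probe's ratios. ACTB, another reference gene, stood at 0.36 and 1.29 (limma adjusted p = 0.195). What these 2 genes mean for the HSPA5 result was not tested.

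For the brightest probes the fit on extract values gave adjusted p from 0.192 to 0.701 in KD1 over CON, from 0.153 to 0.767 in KD1 over WT and from 0.202 to 0.959 in WT over CON. In KD1 over CON 0 of the 15 probes passed an adjusted p of 0.05, against 1.79% of tested probes in the fit on ratios and 0.729% in the fit on extract values. The count was also 0 in KD1 over WT, against 1.04% and 0.43%. In WT over CON it was 1 of 15 in the fit on ratios, against 1.37%, and 0 in the fit on extract values, against 0.492%. In both clones over WT, the comparison that puts the puromycin-treated cultures against the untreated one, it was 0 of 15, against 0.137%. By size alone, a mean of at least 2-fold with the same sign on all 4 arrays, 4 of the 15 probes (of TRIB3, DDIT3 and ASNS) met the rule in KD1 over CON, against 3.95% of tested probes. In KD1 over WT 7 of 15 met it (TRIB3, DDIT3, ASNS, ATF3 and the second ATF4 probe), against 4.35%, and in WT over CON the HSPA5 probe alone, against 4.41%. The sizes in the KD1 comparisons rest on replicate 2, since no gene reached 2-fold in replicate 1. In replicate 2 of KD1 over WT 8 of the 10 did, against 4.82% of tested probes.

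**Figure D3:**
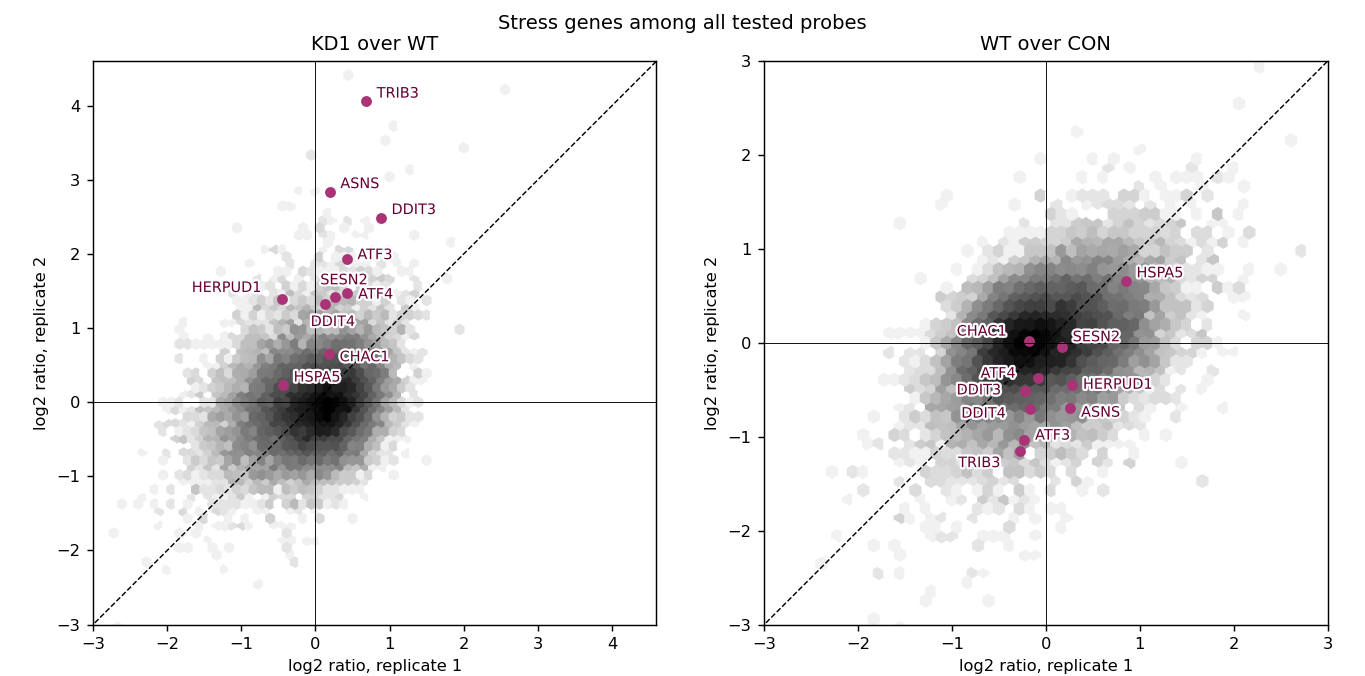
Log2 ratio in replicate 1 (horizontal axis) against replicate 2 (vertical axis) for all tested probes (grey, darker where more probes fall; a few lie outside the axes) and the 10 genes (purple), in KD1 over WT and WT over CON. In KD1 over WT all 10 genes lie above the dashed line of equal ratios. The share of all tested probes above that line was not counted, and their medians were 0.05 in replicate 1 and -0.03 in replicate 2. In WT over CON HSPA5 is the gene furthest up and to the right, at 0.85 and 0.66.

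For both clones over WT the brightest probes had a median of 0.16 in replicate 1 and 0.96 in replicate 2, and HSPA5 was below 0 in each (-0.65 and -0.21). TRIB3 stood at 0.48 and 2.60 (mean 1.54 ± 1.50, SD, n = 2; limma adjusted p = 0.289) and DDIT3 at 0.55 and 1.50 (mean 1.02 ± 0.67, SD, n = 2; limma adjusted p = 0.215). Puromycin, clonal selection and the integrated constructs were all present in both clones and absent from WT, so they cannot be told apart here.

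Other genes of the pathway were then described from 8 lists, each gene by its brightest probe and with the 10 genes left out. The lists overlap. PPP1R15A is also among the stress signalling targets and EIF2AK3 also among the sensors, so each was counted in both. Among the kinases that phosphorylate eIF2alpha, the phosphatase that reverses it and the initiation factors, 0 of 17 genes passed the test in any comparison. The exception by size was PPP1R15A (GADD34), the ATF4-induced subunit that directs the phosphatase to eIF2alpha, which stood at 0.37 and 1.18 in KD1 over CON and at 0.62 and 1.60 in KD1 over WT, the only gene of the list at 2-fold in either. Among the sensors of unfolded protein and their processing enzymes none passed either, and none was 2-fold higher in any replicate. XBP1, the factor spliced by IRE1, stood at 0.03 and 0.81 in KD1 over CON and at -0.60 and 0.58 in KD1 over WT; the array does not separate its spliced form. EIF2AK3 (PERK), the ER-bound eIF2alpha kinase, stood at -0.75 and 0.01 in KD1 over CON and at -0.45 and 0.00 in KD1 over WT. PPP1R15A, XBP1 and EIF2AK3 were picked out after their values were seen.

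The 3 lists of known ATF4 targets followed the split between replicates in the KD1 comparisons. Of 13 aminoacyl-tRNA synthetase and tRNA export genes, 0 were 2-fold higher in KD1 over WT in replicate 1 and 7 in replicate 2 (WARS, YARS, GARS, CARS, SARS, IARS and MARS), with medians of 0.39 and 1.05. AARS went the other way in both, at -0.84 and -0.69. Of 20 tested genes of amino acid synthesis and transport, 0 and 5 were 2-fold higher (SLC1A4, SLC7A11, PHGDH, GOT1 and GPT2), with medians of -0.15 and 0.67. CBS and SLC43A1 were 2-fold lower in replicate 1. Of 17 stress signalling and secreted targets, 1 and 8 were 2-fold higher, PPP1R15A again among the 8, with medians of 0.38 and 0.95. TNFRSF10B was 2-fold lower in replicate 1. Across 13330 tested genes the share at 2-fold higher in this comparison was 1.82% in replicate 1 and 4.96% in replicate 2, and the medians were 0.02 and -0.01. GDF15, a secreted stress cytokine, had the widest gap between replicates in these 3 lists, -0.23 and 3.29, and WARS, the tryptophan synthetase, stood at 0.57 and 2.83; both were named for their size.

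In KD1 over CON the same 3 lists gave 0 and 5 of 13, 1 and 4 of 19, and 1 and 8 of 17 genes at 2-fold higher, against 1.68% and 3.88% of all genes. The fit on ratios called 2 of these target genes, both higher in KD1. SLC7A1, a carrier of arginine and lysine, stood at 1.11 and 1.46 (mean 1.28 ± 0.25, SD, n = 2; limma adjusted p = 0.0331), and HMOX1 (heme oxygenase 1) at 1.02 and 1.60 (mean 1.31 ± 0.41, SD, n = 2; limma adjusted p = 0.0354). In the fit on extract values neither passed. SLC7A1 was also higher in WT than in CON, at 1.13 and 1.00 (limma adjusted p = 0.0703), and stood at 0.05 and 0.53 in KD1 over WT, which makes CON its lowest culture, as for HSPA5. In replicate 1 of WT over CON, 5 of 20 amino acid genes were 2-fold higher, against 4.46% of all genes. They were CBS, SLC38A2, SLC7A1, SLC1A4 and SLC7A11. The list's medians there were 0.24 and -0.04. Those of the synthetase list were -0.20 and -0.29, and those of the stress signalling list -0.36 and -0.24.

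Of 14 tested bZIP partners of ATF4, 1 passed the test. CEBPD was lower in KD1 than in CON, at -1.32 and -1.53 (limma adjusted p = 0.0178), and passed in the fit on extract values as well. It was also lower in WT than in CON in the fit on ratios, at -1.13 and -1.25 (limma adjusted p = 0.0435), but not in the fit on extract values. By size, and picked out after their values were seen, CEBPB, CEBPG and ATF5 were 2-fold higher in replicate 2 of both KD1 comparisons, CEBPB at -0.04 and 1.75 over CON and at 0.55 and 2.42 over WT. ATF5, itself translated under eIF2alpha phosphorylation, stood at 0.60 and 1.76 over CON and at 1.12 and 1.77 over WT.

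The ER chaperones and folding enzymes went with HSPA5 rather than with TRIB3. In WT over CON all 29 tested genes were above 0 in replicate 1 and 22 in replicate 2, with medians of 0.66 and 0.42, against -0.04 and -0.01 for all genes. GAPDH and ACTB were also above 0 there in both replicates, and what that means for this list was not tested. The fit on ratios called 2 of the 29 there, both higher in WT: DNAJC3 (p58IPK), an ER co-chaperone, at 1.75 and 1.32 (limma adjusted p = 0.0256), and CRELD2, an ER stress-induced secreted protein, at 1.59 and 1.42 (limma adjusted p = 0.0202). In the fit on extract values CRELD2 passed as well (0.0458) and DNAJC3 did not (0.0557). In KD1 over WT 1 and 12 of the 29 were above 0, with medians of -0.53 and -0.16, and no gene passed. In KD1 over CON the medians were 0.21 and 0.21, and DNAJC3 (1.26 and 1.21; limma adjusted p = 0.0379) and DNAJB11, a co-chaperone of HSPA5 (0.96 and 1.13; limma adjusted p = 0.0492), were called higher in KD1 in the fit on ratios and not in the fit on extract values. ER-associated degradation genes gave no call in any comparison, with medians of 0.33 and 0.11 in WT over CON.

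**Figure D4:**
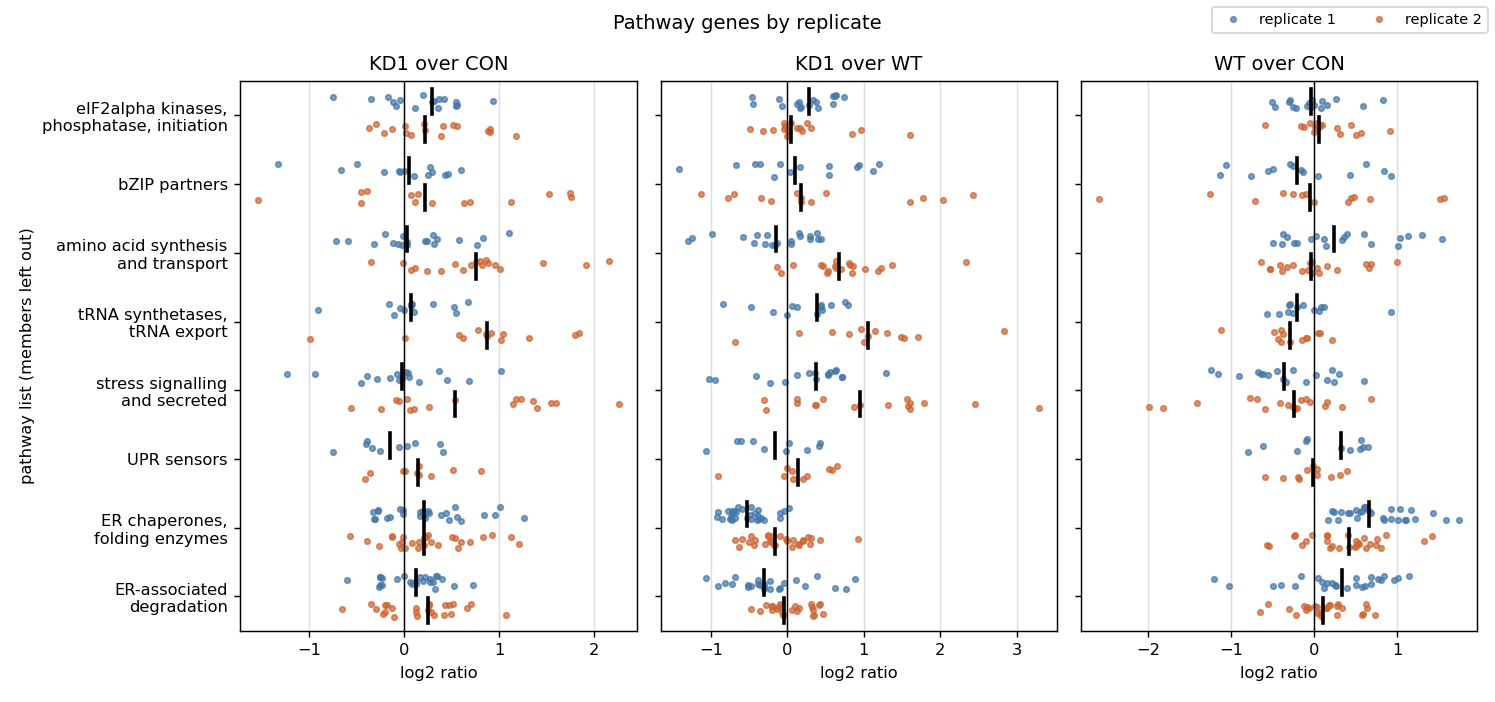
Log2 ratio (horizontal axis) of the genes of 8 pathway lists (vertical axis) in KD1 over CON, KD1 over WT and WT over CON; each point is a tested gene in replicate 1 (blue) or 2 (orange) and black bars are medians. In KD1 over WT the median of the tRNA synthetase list is 0.39 and 1.05, and in WT over CON that of the ER chaperones is 0.66 and 0.42.

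The genes whose 6 replicate ratios lay closest to those of TRIB3 and DDIT3, the members with the largest mean ratio in any single comparison (2.37 and 1.69, both in KD1 over WT), were looked up among 13330 tested genes by the mean absolute difference over the 6 ratios. For TRIB3 they were IL20RB (0.18), a cytokine receptor chain, PLA2G4C (0.23), a phospholipase, and LDB3 (0.26), a protein of the muscle Z-disc. IL20RB stood at 0.93 and 3.67 in KD1 over WT, PLA2G4C at 0.58 and 3.79 and LDB3 at 0.69 and 3.41. They were picked for ratios near those of TRIB3, so their high replicate 2 values follow from the choice. None of them is in the pathway lists, and whether they respond to stress was not tested. For DDIT3 they were SLC3A1 (0.14), TM4SF19 (0.26) and SRPK3 (0.27), a muscle protein kinase, and SLC3A1, a subunit of a carrier of cystine and basic amino acids, stood at 0.85 and 2.49.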

How the data were processed

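The authors scanned 12 Agilent whole genome arrays and processed them with Agilent Feature Extraction 10.5.1.1. Per the file headers, the deposited processed signal of each channel is a linear intensity after background subtraction and within-array dye normalization. The deposited log10 ratio is red over green. The series table deposited by the authors holds the same ratio as log2 per probe, with dye-swapped arrays already turned (largest difference 5.35e-06). Probe positions are on NCBI36.

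Here, log2 ratios of the processed signals were turned to the named direction and averaged over spots, without outlier flags (95 to 188 per array), and over each dye-swap pair. Precision is limited by 2 extracts per culture and 4 arrays per extract, since intensities carry no counts. A probe was tested in a comparison only if, on each of its arrays, Cy3 or Cy5 signal after background subtraction was higher than in 99% of the 153 negative controls. The test was limma 3.58.1 (R 4.3.3) on the 6 replicate ratios, with the residual degrees of freedom set by hand to 2, for the shared extracts, and p adjusted over all tested probes (Benjamini-Hochberg). On simulated data this fit made more false calls than its threshold allows where arrays carry noise of their own, whereas limma on extract values (least squares over the arrays of a replicate, replicate as a block) did not, so both adjusted p-values were compared for calls. Both clones over WT was tested on extract values. Levels are separate-channel log2 values made comparable between arrays with limma's Aquantile. The labels do not state that replicates are separate cultures, so p-values measure the spread between extracts only.

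The genes, the 8 lists and the tests were chosen with earlier results of these data known. Named list genes are those past the threshold, at most 3 per direction, list and comparison; others are marked. The nearest genes are 3 for each of the 2 members with the largest absolute mean ratio in any comparison. Alternatives were normexp with loess (offset 50), median centring, the series table, other filters, other fits, each replicate left out, and the mean over probes.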

Additional observations from a re-analysis of the deposited data

How the results depend on the processing

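Counted by brightest probe, 0 of the 10 genes were called in each comparison, and the count stayed at 0 under every tested alternative except slide and dye terms with the dye-swap pair as a random block, which gave 1 in KD1 over WT (DDIT3, adjusted p = 0.0422) and 2 in both clones over WT (ATF3, 0.0371, and DDIT3, 0.0365). That fit does not hold the 4 arrays of an extract together, and it called 1019 probes in KD1 over WT against 259. For both clones over WT, the averaged direct ratios called 1294 probes against 30; it shares WT between its ratios, and 0 of the 10 genes passed by brightest probe. Under normexp and loess the calls over all probes were 26, 1, 2 and 0 in KD1 over CON, KD1 over WT, WT over CON and both clones over WT, against 393, 259, 365 and 30; without the filter they were 252, 181, 199 and 67, and with median centring 319, 177, 235 and 8. With the well-above-background filter both clones over WT gave 46 calls. Without the replicate block, in the separate-channel fit, the counts of members stayed at 0 and those over all probes were 201, 126, 110 and 28. The 3 cultures share replicate numbers; deviations of same-numbered extracts correlated with 0.541 (KD1 and CON), -0.0721 (KD1 and WT) and -0.0219 (CON and WT), while the arrays set same-numbered extracts against each other, so both fits compare extracts within a replicate number. In the separate-channel fit the ratio of HSPA5 in KD1 over WT was 0.25 and under median centring it was 0.00, against -0.11; the cause was not tested. Of 320 member ratios under tested alternatives with both replicates, 315 kept their direction and side of the threshold. Averaging the probes of a gene, which gives no test, turned none of 20 ratios; ASNS went from 1.32 to 0.75 in KD1 over CON and from 1.51 to 0.89 in KD1 over WT, and HSPA5 from 0.53 to 0.74 in KD1 over CON and from 0.75 to 1.00 in WT over CON. Leaving out a replicate gives a single ratio and no test; 10 of those 80 ratios had the opposite sign of the mean.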
